A study of Mus musculus with 12 samples.

Results

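Lower abdominal muscle of AromhumH mice was compared with that of wild type (WT) mice, on the 4 arrays titled AromhumH and the 4 titled WT among the 12 arrays of the series. Both groups, like the remaining group AromhumL, were male FVB/N mice aged 1 month, and they differed in genotype alone as far as the labels say. WT animals were the controls. AromhumH and AromhumL are both humanized aromatase transgenic mice, with more human aromatase in AromhumH than in AromhumL. The transgene's promoter, the number of founders and any pooling of animals were not found in the labels, and a mouse probe need not read the human transcript. RNA was labelled with biotin and hybridised to Illumina mouse bead arrays, which read 1 colour. The labels do not say that the replicates were separate animals, so some of the spread among the 4 arrays of a group may be technical. The p-values of genes rest on the spread within all 3 groups, AromhumL included.

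Aromatase converts androgens into oestrogens, which act mainly through oestrogen receptor alpha, a transcription factor that binds palindromic DNA elements. The lower abdominal wall of males holds the thin muscle layers through which the spermatic cord passes and where inguinal hernias arise. The lines serve to ask what local oestrogen does to this muscle. Skeletal muscle responds to androgens as an anabolic tissue, and its connective tissue sheaths contain fibroblasts that carry steroid receptors. The inner face of the abdominal wall is lined by mesothelium, a sheet of cells that carries keratins of simple epithelia.

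Of 45281 probes, 19004 were detected (detection p under 0.05) on at least 4 of the 12 arrays, and these represented 10575 named genes. Each gene was read by its brightest detected probe, and values are normalized log2 intensities, so that a difference of 1 is a 2-fold change. In AromhumH, 93 genes rose and 32 fell (limma over all 12 arrays, Benjamini-Hochberg adjusted p under 0.05), which is 0.879% and 0.303% of the genes tested and 1.18% together. Counts of list members that rose or fell are to be set beside these shares. At an unadjusted p under 0.05 there were 1069 higher and 698 lower genes. The rises were the larger changes: their median log2 change was 0.97, with a range of 0.53 to 4.96, and 44 of them were 2-fold or more. The falls had a median of −0.78, with a range of −1.78 to −0.54, and 4 of them were 2-fold or more. The median over all genes was 0.01, with 5388 genes (51.0%) above 0. For 92 of the 93 higher genes, all but Erfe, the lowest AromhumH value exceeded the highest WT value, which held for 5.34% of all genes. For all 32 lower genes the highest AromhumH value was under the lowest WT value, which held for 3.33% of all genes. The 2 directions together made up 8.67% of all genes. The changed genes were called on these same values, which favours groups without overlap, so their separation is a description and no further support.

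How many genes passed turned on which arrays were in the fit. Leaving out AromhumH 2 left 2 genes, AromhumH 4 left 20 and WT 1 left 22. The count was 51 when WT 4 was dropped, 69 for WT 2, 76 for AromhumH 1 and 120 for WT 3, and dropping AromhumH 3 raised it to 316, against 125 with all arrays. The genes were not all the same: 84 of the 125 passed without WT 3 and 120 of the 125 without AromhumH 3. None of the 125 genes changed direction in these 8 fits. For the 124 of them whose groups did not overlap, leaving out 1 array cannot change the direction, so this is no sign of stability. Dmkn and Myo5b passed in all 8, and 11 further genes failed only without AromhumH 2: Ankrd2, Csrp3, Cyp2s1, Krt7, Krt8, Msln, Ncam1, Pkhd1l1, Spon1, Ubxn2a and Upk1b. In a principal component analysis of the 8 arrays, component 1 (33.6% of variance) separated the groups, with AromhumH arrays between −20.7 and −1.08 and WT arrays between 5.62 and 30.2. Mean raw intensity was 334.7 ± 31.6 in AromhumH and 317.9 ± 49.9 in WT (SD, n = 4, two-sided exact permutation p = 0.629). Probes detected per array numbered 18213.8 ± 622.8 and 18108 ± 398.8 (SD, n = 4, exact permutation p = 0.771).

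The arrays carried the label's tissue. All 12 skeletal muscle markers were tested and 0 changed, with a median log2 change of −0.06. Acta1, skeletal alpha-actin, stood between 14.28 and 14.64 on AromhumH and between 14.42 and 14.51 on WT arrays (log2 change 0.06, SE 0.118, adjusted p = 0.838). Ckm, muscle creatine kinase, differed by 0.09 (SE 0.111, adjusted p = 0.742). In bulk tissue, fewer cells of a type and less RNA per cell cannot be told apart, and this holds for every change below.

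The upstream sequences of 4 genes that rose are shown as examples: Kiss1, with the largest change, the keratin pair Krt8 and Krt18, and the stretch-responsive Ankrd1. Whether any factor binds these sequences was not tested. Each run covers 250 bases before to 50 bases after the gene's start, 5′ to 3′ on the gene's own strand, from RefSeq on build GRCm38.p6. Capitals mark the oestrogen response element half-site GGTCA, read on either strand, in the promoters of Kiss1 (chr1:133326962-133327261, plus strand), Krt8 (chr15:102004293-102004592, minus strand) and Krt18 (chr15:102027966-102028265, plus strand). In Ankrd1 (chr19:36119795-36120094, minus strand) they mark the M-CAT motif CATTCC, also read on either strand.
Kiss1: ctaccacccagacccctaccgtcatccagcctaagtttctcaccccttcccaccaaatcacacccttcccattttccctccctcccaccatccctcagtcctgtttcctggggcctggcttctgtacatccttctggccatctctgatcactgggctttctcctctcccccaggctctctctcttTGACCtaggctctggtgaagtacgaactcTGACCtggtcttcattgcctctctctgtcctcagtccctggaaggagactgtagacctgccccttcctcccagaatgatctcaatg
Krt8: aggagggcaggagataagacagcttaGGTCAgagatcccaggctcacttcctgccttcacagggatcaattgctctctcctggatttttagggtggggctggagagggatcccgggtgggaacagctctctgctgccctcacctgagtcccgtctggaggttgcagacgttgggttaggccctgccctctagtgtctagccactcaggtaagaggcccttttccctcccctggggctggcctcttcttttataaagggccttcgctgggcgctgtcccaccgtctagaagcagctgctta
Krt18: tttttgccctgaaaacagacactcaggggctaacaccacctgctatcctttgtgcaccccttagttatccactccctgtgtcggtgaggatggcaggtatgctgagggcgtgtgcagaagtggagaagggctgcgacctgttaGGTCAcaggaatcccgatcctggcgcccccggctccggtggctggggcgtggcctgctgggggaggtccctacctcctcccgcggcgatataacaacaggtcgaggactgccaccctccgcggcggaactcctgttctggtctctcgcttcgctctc
Ankrd1: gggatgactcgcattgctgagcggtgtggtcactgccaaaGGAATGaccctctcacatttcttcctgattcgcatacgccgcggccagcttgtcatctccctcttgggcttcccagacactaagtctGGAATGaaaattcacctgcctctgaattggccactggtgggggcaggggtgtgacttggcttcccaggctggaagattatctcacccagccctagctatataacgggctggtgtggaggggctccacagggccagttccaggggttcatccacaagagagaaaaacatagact
Kiss1 held 2 half-sites, Krt8 and Krt18 held 1 each, and Ankrd1 held 2 M-CAT motifs and also 2 half-sites, which are not in capitals except where they share letters with an M-CAT motif.

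Short motifs of this kind are common. At least 1 promoter was found for 70 of the 93 higher genes, 27 of the 32 lower genes and 8553 of the genes tested. Some genes have several promoter windows, and a gene was counted where any of them held the motif. The shares are therefore shares of genes with a promoter. The half-site GGTCA occurred in 33 higher genes (47.1%), 12 lower genes (44.4%) and 42.6% of all tested genes. The full element GGTCANNNTGACC, which contains the half-site, occurred in 0 promoters of changed genes and in 1 of all tested genes (0.0117%). The androgen response element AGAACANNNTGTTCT likewise occurred in 0 promoters of changed genes and in 1 of all tested genes. CATTCC was found in 12 higher genes (17.1%), 6 lower genes (22.2%) and 14.7% of those tested. The AP-1 motif TGANTCA was in 7 of the 70, in 2 of the 27 (7.41%) and in 6.31% of those tested. Of all 27025 genes with a RefSeq promoter, 43.6% held GGTCA, 16.6% CATTCC, 8.97% TGANTCA and 0.0740% the full oestrogen response element. All motifs were read on both strands, matches of different motifs may share letters, as an M-CAT motif and a half-site do in Ankrd1, and a match describes letters in this window only.

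Kiss1 rose most of all genes. It encodes the precursor of the kisspeptins, peptides best known for stimulating neurons that release gonadotropin-releasing hormone, and in the hypothalamus it is regulated by oestrogen. On AromhumH 1 to 4 it stood at 10.77, 11.48, 10.36 and 10.68, and on WT 1 to 4 at 6.45, 7.55, 4.33 and 5.11. The AromhumH arrays were close to each other (10.82 ± 0.47, SD, n = 4), while WT arrays spread widely (5.86 ± 1.43), and 1 WT array did not detect the transcript. The log2 change was 4.96 (SE 0.858, 95% interval 3.14 to 6.78, adjusted p = 0.0145), or 31.1-fold. Its adjusted p was 0.0614 without AromhumH 2, and it also missed the threshold without AromhumH 4, where the range over all such fits was 0.018 to 0.0614. The 12 other measured peptide hormones and receptors of its list did not pass, and the kisspeptin receptor Kiss1r was detected on 0 arrays.

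**Figure D1:**
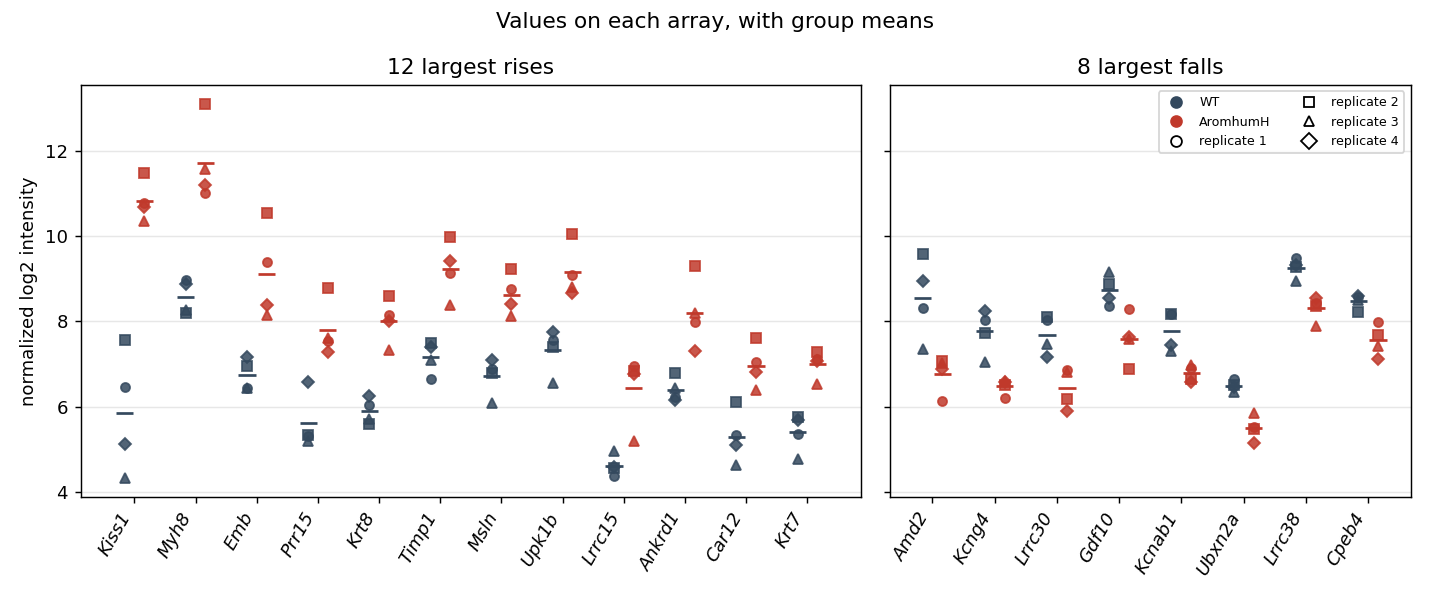
Normalized log2 intensity (vertical axis) of the 12 largest rises and 8 largest falls whose groups do not overlap, with 1 point per array, shapes for the replicate and bars for the group mean. By this choice of genes, AromhumH arrays lie above WT arrays on the left and below them on the right. AromhumH 2 is the highest AromhumH array for Kiss1, Myh8 and Emb.

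Oestrogen-responsive genes and sex steroid enzymes and receptors gave 0 calls in their lists. Esr1, which encodes oestrogen receptor alpha, stood at 8.30, 9.25, 8.50 and 8.01 in AromhumH and at 7.86, 7.21, 8.58 and 8.58 in WT. The groups overlapped (log2 change 0.46, SE 0.282, adjusted p = 0.438). Greb1, a growth regulator induced by oestrogen in breast cells, stood at 6.21, 6.81, 5.75 and 6.17 against 5.30, 5.54, 4.94 and 5.22. All AromhumH arrays lay above all WT arrays, at a log2 change of 0.98 (SE 0.244), but the adjusted p was 0.061. A second Greb1 probe gave 0.92 (SE 0.16) and passed when probes were tested one by one (adjusted p = 0.0176). Greb1 was not alone in this, since uncalled genes of other lists, such as Mustn1, Camk2a, Idh3g and Pcolce2, also had such a probe. The mean of the probes gave 0.95, which also passed (adjusted p = 0.0289). Among 10 measured oestrogen-responsive genes 0 changed and 8 lay above 0, with a median of 0.36, and among 10 sex steroid enzymes and receptors 0 changed, with a median of −0.00. The smallest p of the enzymes was that of Hsd17b7, which acts in cholesterol synthesis and on sex steroids, at −0.78 (adjusted p = 0.0515). Car12, a membrane-bound carbonic anhydrase induced by oestrogen in human breast cells, is in neither list and was taken from the genes that rose. It went from 5.34, 6.12, 4.63 and 5.09 in WT to 7.05, 7.62, 6.39 and 6.81 in AromhumH (log2 change 1.67, SE 0.352, adjusted p = 0.0341). A second Car12 probe gave 1.11 and did not pass when probes were tested one by one (adjusted p = 0.0853). Car12 passed in 2 of the 8 fits without 1 array.

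Amd2 fell most of all genes. It encodes an S-adenosylmethionine decarboxylase, the enzyme that supplies aminopropyl groups for polyamine synthesis, and polyamine genes are known androgen targets in mouse tissues. Its AromhumH values were 6.12, 7.07, 7.02 and 6.88, against 8.31, 9.59, 7.36 and 8.95 in WT, and WT 3 stood closest to the AromhumH arrays. The log2 change was −1.78 (SE 0.399, adjusted p = 0.0427), which is 3.43-fold lower. A second probe stood at −1.23, and since Amd2 is a near-identical copy of Amd1, the probes may read both. Without 1 array the change ran from −2.17 to −1.43 and passed only without AromhumH 3 and without WT 3 (adjusted p from 0.0168 to 0.11). Amd2 was the 1 changed gene among 9 measured androgen-responsive and polyamine genes, whose median was −0.02.

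Markers of mesothelium and of simple epithelium were prominent among the rises. Of 15 mesothelial markers 12 were measured, each was higher in AromhumH, the median log2 change was 1.08, and 8 rose (0.879% of all genes tested rose). Msln, which encodes the surface protein mesothelin, stood at 8.77, 9.22, 8.12 and 8.42 in AromhumH and at 6.88, 6.79, 6.08 and 7.09 in WT. This was a 3.79-fold rise (log2 change 1.92, SE 0.283, adjusted p = 0.00794). Upk1b, a uroplakin of the tetraspanin family, rose from 7.57, 7.40, 6.55 and 7.75 to 9.08, 10.04, 8.81 and 8.67 (log2 change 1.83, SE 0.325, adjusted p = 0.0145). Upk3b, another uroplakin gene, rose by 0.97 on its brightest probe and by 0.92 and 1.01 on its others, all past the threshold when probes were tested one by one. Pkhd1l1, a large receptor-like protein, rose by 1.16, the membrane glycoprotein gene Gpm6a by 1.11 and the claudin gene Cldn15 by 0.92. Of the rest, Calb2 missed the detection filter, and Wt1 and Muc16 were not analysed here. The mean of the 12 markers, set against their WT means, ran from 0.92 to 1.42 on the AromhumH arrays and from −0.37 to 0.29 on the WT arrays. Without AromhumH 2, 0 of the 8 passed, and the median was 1.02. On the deposited processed values the median was 0.50, and without background correction it was 0.67. Without AromhumH 2, Msln and Krt8 narrowly missed the threshold (limma, both adjusted p = 0.05003), at log2 changes of 1.72 and 1.94. Both passed under all 12 alternative settings other than leaving out 1 array.

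Keratins of simple epithelia rose as a set. Krt8 and Krt18 encode the partner keratins of simple epithelial cells, and Krt7 and Krt19 accompany them in mesothelium and ducts. Krt8 stood at 8.14, 8.60, 7.33 and 8.01 in AromhumH and at 6.03, 5.58, 5.71 and 6.24 in WT, a rise of 4.38-fold (log2 change 2.13, SE 0.312, adjusted p = 0.00794). Every AromhumH array lay above every WT array. Krt7 moved from 5.36, 5.77, 4.77 and 5.69 to 7.12, 7.29, 6.53 and 7.08 (log2 change 1.61, SE 0.237, adjusted p = 0.00794). Krt18 rose by 1.44 (SE 0.249, adjusted p = 0.0145) and Krt19 by 1.06 (SE 0.24, adjusted p = 0.0446). Krt7 and Krt19 are also in the mesothelial list. These 4 keratins were the changed members among 7 measured markers of simple and mammary epithelium (1.18% of all genes tested changed). The other 3 did not pass: Cdh1, which encodes E-cadherin, stood at 0.05 (adjusted p = 0.911), Cldn7 at 0.10 (adjusted p = 0.852) and Muc1 at 0.11 (adjusted p = 0.762). Another 12 of the 21 listed genes were detected on 0 arrays, among them Epcam, Elf5, Cldn3, Cldn4 and the milk protein genes Csn2, Csn3, Wap and Lalba. The part of mesothelial or epithelial cells in the other changes below was not tested.

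Some genes better known from squamous epithelium rose on the same arrays. Dmkn, a secreted epidermal protein, had the smallest adjusted p together with Myo5b. It stood at 7.91, 8.75, 8.33 and 8.86 in AromhumH and at 6.86, 7.05, 6.69 and 7.05 in WT (log2 change 1.55, SE 0.203, adjusted p = 0.00632). A second Dmkn probe gave 1.66 and another gave 0.20, which did not pass. Lgals7, which encodes galectin-7, rose by 1.53, with other probes at 0.81 and 0.13. Of 7 measured epidermal markers these 2 rose, 5 lay above 0 and 2 lay below 0, the lowest at −0.20. The median was 0.37, and Krt5, Krt15 and Krt17 were detected on 0 arrays. The genes that follow are outside the list and were taken from those that rose, so they do not speak for the list. Cdh3, which encodes P-cadherin, rose by 1.03, Evpl, a plakin of cornified envelopes, by 0.90 and the annexin gene Anxa8 by 1.11. Cdh3 and Anxa8 were each detected on 1 of 4 WT arrays, so that their WT level lay close to the limit of detection. Aqp5, a water channel of secretory epithelia, was detected on 4 AromhumH and 0 WT arrays and was at least 2.02-fold higher in AromhumH (adjusted p = 0.0341). Myo5b, a myosin motor of vesicle traffic at apical membranes, rose by 1.16 (SE 0.144, adjusted p = 0.00632), and it too was detected on only 1 of 4 WT arrays.

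**Figure D2:**
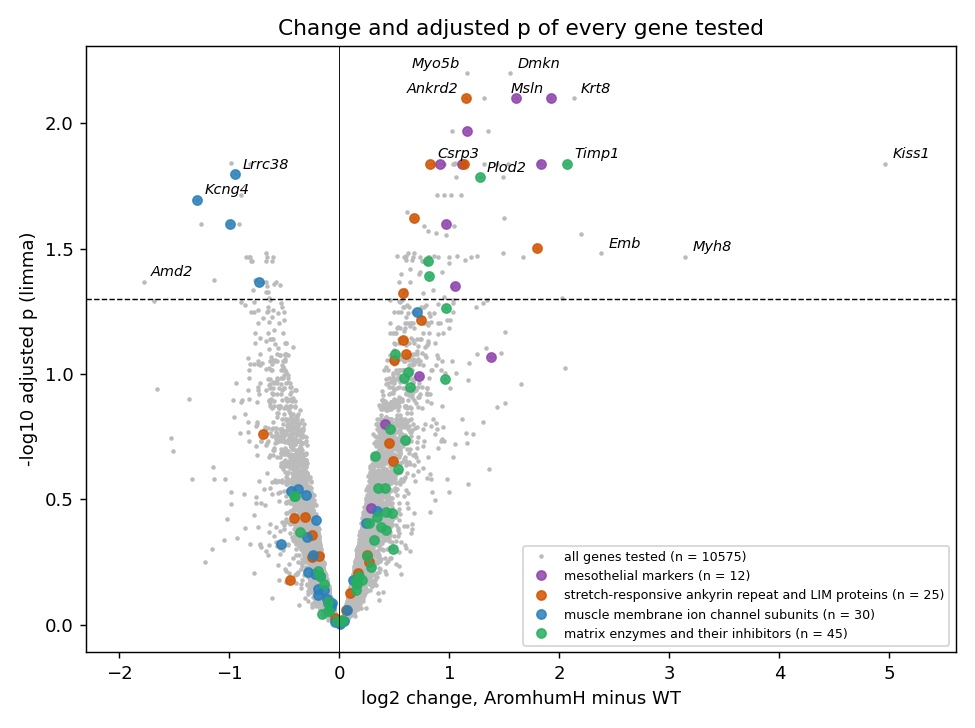
Log2 change between AromhumH and WT (horizontal axis) against −log10 of the adjusted p (vertical axis) for all 10575 genes tested, with 4 gene lists in colour and the threshold as a dashed line. Mesothelial markers and stretch-responsive genes above the line lie to the right and the channel subunits above it lie to the left, while Kiss1 stands apart at a change of 4.96.

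Matrix genes were higher in part. Timp1, the inhibitor of matrix metalloproteinases, stood at 9.14, 9.98, 8.39 and 9.40 in AromhumH and at 6.66, 7.49, 7.10 and 7.39 in WT. It rose 4.19-fold (log2 change 2.07, SE 0.351, adjusted p = 0.0145), and its second probe gave 2.05. Of 45 measured matrix enzymes and inhibitors 34 lay above 0, with a median of 0.32. In this list 0 fell and 4 rose (0.879% of all genes tested rose). Beside Timp1 these were Plod2, a lysyl hydroxylase of collagen cross-linking (1.28), Loxl1, a lysyl oxidase that acts on elastin (0.82), and the metalloproteinase gene Mmp23 (0.80). The other probes of Plod2 gave 1.17 and 0.09. AromhumH 3 was the lowest AromhumH array for all 4, and the list's mean there was 0.05, while AromhumH 1, 2 and 4 had 0.38 to 0.44 and WT arrays −0.09 to 0.12. No member of the list passed without AromhumH 2, without AromhumH 4 or without WT 1, and 8 passed without AromhumH 3. Pcolce2, a list member not called on its brightest probe, stood at −0.75 on another. That probe passed when probes were tested one by one (adjusted p = 0.0429).

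Structural matrix genes gave fewer calls. Eln, which encodes elastin, stood at 12.12, 11.54, 11.10 and 11.55 in AromhumH and at 9.90, 9.94, 10.62 and 10.84 in WT (log2 change 1.25, SE 0.258, adjusted p = 0.0338), and its other probe gave 0.45. WT 4 and AromhumH 3 came closest to each other. Ccn3, a matricellular protein gene, rose by 0.86. Eln and Ccn3 were the 2 changed genes among 47 matrix glycoproteins and proteoglycans (1.18% of all genes tested changed). Of the 47, 33 lay above 0 (median 0.21). Of 23 collagens 0 changed and 18 lay above 0, with a median of 0.35 and with Col8a1 at 1.25 (adjusted p = 0.0835) as the smallest p. Outside the lists, Spon1, a secreted matrix protein, rose by 1.35 (SE 0.207, adjusted p = 0.0107), and Adamtsl2, which binds fibrillin microfibrils, by 0.95. P3h4, which works with collagen-modifying enzymes in the endoplasmic reticulum, rose by 0.88, Fkbp11, a prolyl isomerase of the secretory pathway, by 0.88 and Sec24d, a coat protein that exports procollagen, by 0.78.

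Stromal markers were uneven. Of 14 measured markers of activated stroma 2 rose and 13 lay above 0, with a median of 0.59. Lrrc15, a leucine-rich repeat membrane protein of activated fibroblasts, stood at 6.94, 6.84, 5.19 and 6.76 in AromhumH and at 4.36, 4.56, 4.96 and 4.59 in WT. AromhumH 3 was near the WT level, only 1 WT array detected the gene, and the log2 change was 1.81 (SE 0.297, adjusted p = 0.0144). Timp1 was the other. Of 19 general fibroblast markers 0 changed, with a median of 0.17 and with the microfibril gene Mfap5 at 0.78 (adjusted p = 0.0779). The mean of the activated stromal list was 0.26 on AromhumH 3, 0.81 to 1.01 on AromhumH 1, 2 and 4 and −0.25 to 0.18 on the WT arrays. Ptgis, the prostacyclin synthase, rose by 1.31 (SE 0.223, adjusted p = 0.0145) and Bmp4, a growth factor of the TGF-beta family, by 0.79 (SE 0.169, adjusted p = 0.0353). Gdf10, another secreted member of that family, fell, from 8.35, 8.88, 9.16 and 8.55 in WT to 8.28, 6.89, 7.60 and 7.62 in AromhumH (log2 change −1.14, SE 0.254, adjusted p = 0.042). AromhumH 1 and WT 1 lay close to each other for Gdf10. These were the 2 changed genes of 35 measured in TGF-beta and BMP signalling, whose median was 0.11.

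Myh8, the perinatal myosin heavy chain that muscle expresses before birth and again in regenerating fibres, had the second largest rise. It stood at 13.11 on AromhumH 2, at 11.57, 11.21 and 11 on AromhumH 3, 4 and 1, and at 8.97, 8.19, 8.28 and 8.88 on WT 1 to 4. AromhumH 2 was the highest array and every AromhumH array exceeded every WT array. The change was 8.83-fold (log2 change 3.14, SE 0.66, adjusted p = 0.0341). Its other probes gave 2.88 and 3.18, and each of the 3 passed when probes were tested one by one. Leaving out 1 array gave 2.68 to 3.38, and the brightest probe passed only without AromhumH 1 and without AromhumH 3 (adjusted p from 0.0361 to 0.108). Ncam1, a neural cell adhesion molecule that satellite cells and immature or denervated fibres carry, rose by 1.02 (SE 0.159, adjusted p = 0.0107), with its other probes from 0.18 to 0.68. Together with Ankrd1 these were the 3 rises among 20 measured genes of developmental and regenerative myogenesis (0.879% of all genes tested rose). The median of these 20 genes was 0.35. Of 20 neuromuscular junction and denervation genes 0 changed (median 0.05), the smallest p being that of Sln, the sarcoplasmic calcium pump inhibitor sarcolipin, at 0.49 (adjusted p = 0.0684). Of 6 satellite cell markers 0 changed, with a median of 0.28 and with the integrin gene Itga7 at 0.46 (adjusted p = 0.133).

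Ankyrin repeat and LIM domain proteins of the sarcomere, many of which respond to stretch, rose in 6 of 25 measured cases, 0 fell, and the median was 0.27. Over all genes tested, 0.879% rose and 0.303% fell. Ankrd1, an ankyrin repeat protein that binds titin and also enters the nucleus, stood at 7.99, 9.29, 8.19 and 7.30 in AromhumH and at 6.22, 6.78, 6.45 and 6.15 in WT. It rose 3.46-fold (log2 change 1.79, SE 0.363, adjusted p = 0.0314), and its second probe gave 1.70. The related Ankrd2 moved from 9.72, 9.63, 10.28 and 9.50 to 10.78, 11.12, 11.07 and 10.76 (log2 change 1.15, SE 0.166, adjusted p = 0.00794), with little spread among AromhumH arrays. Csrp3, the muscle LIM protein of the Z-disc, rose from 12.50, 12.33, 12.42 and 12.35 to 13.33, 13.50, 13.17 and 12.91 (log2 change 0.83, SE 0.14, adjusted p = 0.0145). All 3 Csrp3 probes passed when tested one by one, with changes from 0.83 to 1.09. Its relative Csrp2 rose by 1.13, the LIM protein gene Lmcd1 by 0.68 and the PDZ and LIM protein gene Pdlim1 by 0.58. The other probes of Lmcd1 gave 0.65 and 0.06. Of the 6, 0 passed without AromhumH 2 and 2 without WT 1. The mean of the list ran from 0.17 to 0.45 on AromhumH arrays and from −0.05 to 0.08 on WT arrays. Mustn1, a list member not called on its brightest probe, stood at 1.15 on another. That probe passed when probes were tested one by one (adjusted p = 0.00877).

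**Figure D3:**
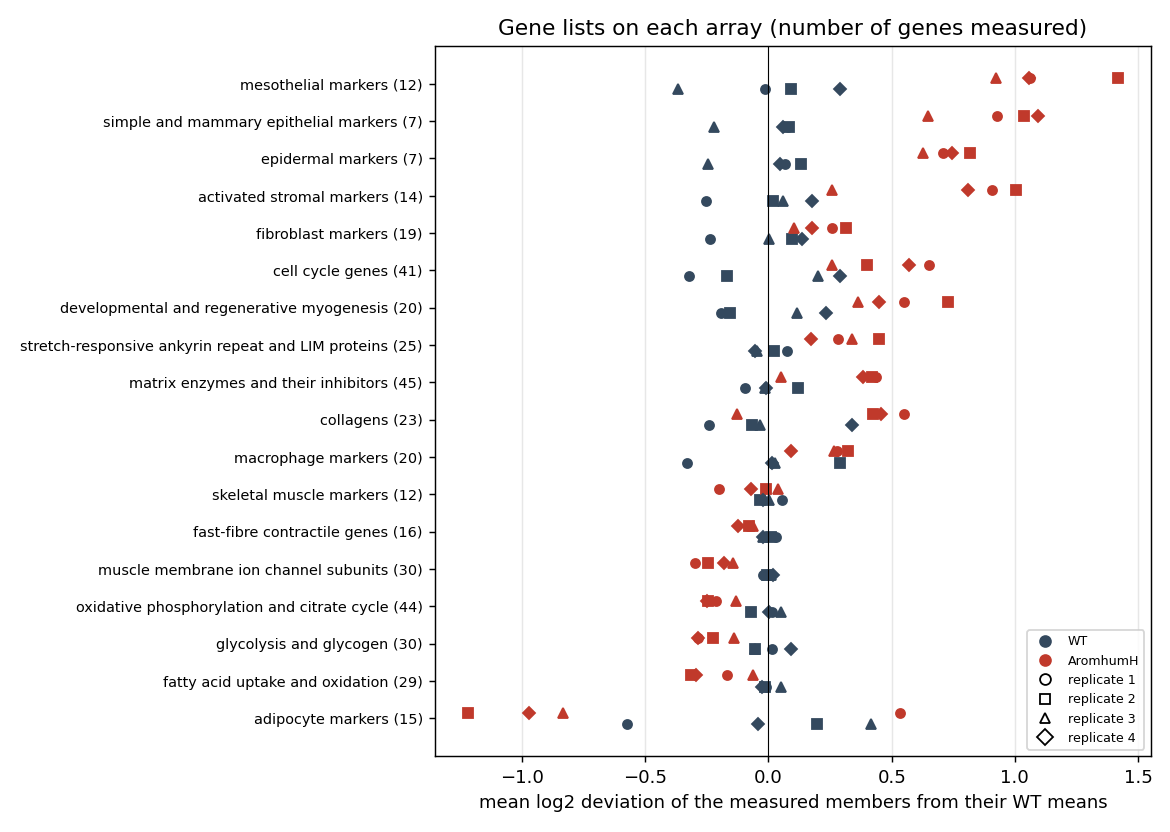
Mean log2 deviation of a list's measured genes from their WT means (horizontal axis) on each AromhumH and WT array, for 18 lists with their number of measured genes. The mesothelial list lies at 0.92 or more on all 4 AromhumH arrays, and the adipocyte list is at 0.53 on AromhumH 1 but at −0.84 or less on the other 3.

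Contractile genes gave few calls. Of 16 fast-fibre genes 0 passed, with a median of −0.06 and with Casq1, the fast-fibre calsequestrin, at −0.74 (adjusted p = 0.115) as the smallest p. Of 24 sarcomere and Z-disc scaffold genes 0 passed, with a median of −0.02 and with Klhl31 at −0.60 (adjusted p = 0.109). Of 15 slow-fibre genes 2 rose, Csrp3 and Casq2, the calsequestrin of heart and slow fibres, and the median was 0.10. Casq2 stood at 8.70, 8.55, 8.73 and 8.67 in AromhumH and at 7.70, 7.29, 8.39 and 7.86 in WT (log2 change 0.85, SE 0.195, adjusted p = 0.046). WT 3 was the WT array nearest to AromhumH. Lmna, which encodes nuclear lamins, rose by 0.61 on its brightest probe, and its 5 other probes gave 0.27 to 0.48, none of them past the threshold.

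Ion channel subunits of the muscle membrane supplied 4 of the 32 falls (0.303% of all genes tested fell). Of 30 measured subunits 4 fell, 0 rose and 23 lay below 0, with a median of −0.18. Kcng4, a modifier subunit of voltage-gated potassium channels, stood at 6.19, 6.51, 6.61 and 6.58 in AromhumH and at 8.04, 7.74, 7.05 and 8.25 in WT (log2 change −1.29, SE 0.243, adjusted p = 0.0202). Kcnab1, a beta subunit of such channels, went from 8.16, 8.17, 7.31 and 7.44 to 6.90, 6.65, 6.98 and 6.58 (log2 change −0.99, SE 0.194, adjusted p = 0.0251). Lrrc38, an auxiliary subunit of calcium-activated potassium channels, went from 9.49, 9.28, 8.94 and 9.33 to 8.43, 8.37, 7.90 and 8.54 (log2 change −0.95, SE 0.17, adjusted p = 0.0159). In each case no AromhumH array reached the WT range. Clcn1, the chloride channel that stabilises the resting potential of muscle, fell too (log2 change −0.73, SE 0.164, adjusted p = 0.0428). Second probes of Kcng4 and Kcnab1 gave −0.86 and −0.82. The list's mean ran from −0.30 to −0.15 on AromhumH arrays and from −0.02 to 0.02 on WT arrays, and 0 of the 4 passed without AromhumH 2 or without WT 1. Outside the list Cntnap2, a neurexin family protein that clusters potassium channels on axons, fell by 0.81 on its brightest probe, with other probes at −0.28 and −0.10.

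Calcium and lipid signalling genes were among the other falls. Plcd4, a phospholipase C, stood at 7.88, 8.56, 8.17 and 8.64 in AromhumH and at 9.21, 9.41, 8.99 and 9.02 in WT (log2 change −0.85, SE 0.18, adjusted p = 0.0341). Its other probes gave −1.15 and −0.87, and all 3 passed when tested one by one. Plcd4 fell and Casq2 rose among 31 calcium handling genes, whose median was −0.10. Camk2a, a list member not called on its brightest probe, stood at −0.90 on another. That probe passed when probes were tested one by one (adjusted p = 0.019). Tiam1, an activator of the small GTPase Rac, fell by 0.82 on the log2 scale, Rasgrp3, an activator of Ras-type GTPases, by 0.58 and Vldlr, a lipoprotein receptor, by 0.60. All 4 Vldlr probes were negative, from −0.60 to −0.46.

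Genes of energy metabolism mostly had log2 changes below 0, with few calls. Of 44 citrate cycle and oxidative phosphorylation genes 39 lay below 0, with a median of −0.20, and 1 fell. This was Dlat, the acetyltransferase of the pyruvate dehydrogenase complex, at 8.69, 8.61, 8.80 and 8.71 in AromhumH and 9.62, 9.17, 9.33 and 9.08 in WT (log2 change −0.60, SE 0.135, adjusted p = 0.0438). It passed only without AromhumH 3 when 1 array was left out (adjusted p from 0.0379 to 0.128). Idh3g, a list member not called on its brightest probe, stood at −0.88 on another. That probe passed when probes were tested one by one (adjusted p = 0.0299). Of 30 glycolysis and glycogen genes 27 lay below 0, with a median of −0.17, and 1 fell. That gene was Ganc, a neutral alpha-glucosidase, at 8.61, 9.22, 9.13 and 8.72 in AromhumH and 10.09, 9.72, 9.52 and 9.90 in WT (log2 change −0.89, SE 0.166, adjusted p = 0.0193), with other probes at −0.58 and −0.47. Of 29 genes of fatty acid uptake and oxidation 0 changed and 24 lay below 0, with a median of −0.15 and with the flavoprotein dehydrogenase gene Etfdh at −0.55 (adjusted p = 0.114). The median of the 3 lists compares with 0.01 over all genes.

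Adipocyte markers separated AromhumH 1 from the other arrays of its group. All 15 measured markers had a log2 change below 0, with a median of −0.60, and 0 changed, the smallest p being that of the lipase gene Lpl at −0.42 (adjusted p = 0.188). The mean of the list was 0.53 on AromhumH 1 and between −1.22 and −0.84 on AromhumH 2 to 4, with WT arrays at −0.57 to 0.42. Without AromhumH 1 the median was −0.82 and 4 members passed. Of 3 brown adipocyte markers 0 changed (median −0.41), with the cytochrome oxidase gene Cox7a1 at −0.41 (adjusted p = 0.156).

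Cell cycle genes lay above WT without many calls. Of 41 measured genes 36 had a log2 change above 0, with a median of 0.49, and 2 rose (0.879% of all genes tested rose). Lig1, the DNA ligase of replication, stood at 6.86, 6.88, 6.51 and 7.04 in AromhumH and at 5.65, 5.81, 6.18 and 5.85 in WT (log2 change 0.95, SE 0.177, adjusted p = 0.0193), and its other probe gave 0.25. Cdca8, a subunit of the chromosomal passenger complex, stood at 6.37, 6.02, 5.77 and 6.60 against 4.55, 5.27, 5.38 and 5.27 (log2 change 1.07, SE 0.221, adjusted p = 0.0338). The list's mean ran from 0.26 to 0.65 on AromhumH arrays and from −0.32 to 0.29 on WT arrays, so that the groups overlapped. On the deposited processed values the list's median was 0.13, and without background correction it was 0.21. Without AromhumH 2, AromhumH 4, WT 1 or WT 4, 0 members passed. Of 42 genes of the actin, tubulin, annexin and S100 families 37 lay above 0 (median 0.35) and 2 rose, Anxa8 and Anxa1, the latter by 0.64. Of 23 IGF axis genes 0 changed (median 0.32), with Igf2, a fetal growth factor, at 0.89 (adjusted p = 0.0836), and of 12 imprinted growth genes 0 changed (median 0.39), with Igf2 again at the smallest p.

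Adhesion and membrane genes contributed further large rises. Emb, which encodes embigin, a membrane glycoprotein that escorts lactate transporters, stood at 9.39, 10.55, 8.16 and 8.39 in AromhumH and at 6.43, 6.95, 6.44 and 7.16 in WT. It rose 5.20-fold (log2 change 2.38, SE 0.486, adjusted p = 0.033), with AromhumH 2 the highest. Prr15, a proline-rich protein gene, stood at 7.53, 8.78, 7.61 and 7.28 against 5.31, 5.33, 5.20 and 6.58 (log2 change 2.20, SE 0.437, adjusted p = 0.0275). Of 38 adhesion and junction genes 5 rose (Emb, Lgals7, Cdh3, Ncam1 and Cldn15), 0 fell, and the median was 0.16. Over all genes tested, 0.879% rose. Fxyd5, a regulator of the sodium pump, rose by 1.10, Atp9a, a lipid flippase, by 1.04 and Ngfr, the low-affinity neurotrophin receptor, by 1.03. The other probes of Fxyd5 gave 0.74 and 0.73, and that of Atp9a gave 0.32. Ngfr was the 1 changed gene among 8 Schwann cell and nerve markers, whose median was −0.03. Fez1, which acts in axon outgrowth, rose by 1.06 and its second probe by 1.02, and Uchl1, a deubiquitinase of neurons, by 1.00.

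Secreted and immune-related genes rose singly. Erfe, which encodes erythroferrone, a hormone that lowers hepcidin, stood at 9.21, 9.76, 7.20 and 8.82 in AromhumH and at 6.59, 7.20, 6.86 and 6.26 in WT (log2 change 2.02, SE 0.47, adjusted p = 0.0499). AromhumH 3 and WT 2 had the same rounded value, and the gene passed only without AromhumH 3 when 1 array was left out. Slpi, an inhibitor of leukocyte proteases, rose by 1.49 (SE 0.269, adjusted p = 0.0164) as the 1 changed gene among 28 chemokine, complement and acute phase genes (median 0.34). Il18r1, a receptor chain for interleukin 18, rose by 1.49, Lbp, which binds bacterial lipopolysaccharide, by 0.95 and Alox5ap, which serves leukotriene synthesis, by 0.68. Rarres2, the precursor of chemerin, rose by 0.62 on its brightest probe, with other probes at 0.58 and −0.00, and was the 1 changed gene among 12 retinoid pathway genes (median −0.14). Hcls1 and Coro1a, actin regulators of blood cells, rose by 0.73 and 0.56. Of 20 macrophage markers 0 changed, with a median of 0.32 and with Aif1 at 0.39 (adjusted p = 0.135). Their mean ran from 0.09 to 0.32 on AromhumH arrays and from −0.33 to 0.29 on WT arrays.

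Cyp2s1, a cytochrome P450, rose by 1.31 (SE 0.186, adjusted p = 0.00794) and passed under all 12 alternative settings other than leaving out 1 array of either group. Phlda3, a p53 target that restrains Akt, rose by 0.86, with a second probe at 0.97 that also passed. Ptpn1, the phosphatase that acts on the insulin receptor, rose by 0.97. The brightest probe of Wdr92 rose by 1.49 while its other probe stood at −0.09. Hspa1b, a heat shock protein gene with a near-identical copy, Hspa1a, rose by 0.61 on 1 probe and stood at −0.03 on the other, and it was the 1 changed gene among 25 immediate early and heat shock genes (median 0.00). Fkbp11 was the 1 changed gene among 28 endoplasmic reticulum genes (median 0.17).

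Smaller rises, from 0.54 to 1.14 on the log2 scale, included the RNA-processing gene Rpp25, Rab15, Chst4, Adgra2, Spsb1, Spsb2, Efna5, Tmem132a, Slc30a7, Nt5c, Togaram2, S1pr2, Igsf9, B4galnt1, Cul7, Tmem176b, Il17rd, Il20rb, Ttll12 and Ppp4c. Several of these encode membrane receptors or ligands, such as S1pr2, a receptor for sphingosine 1-phosphate, and Efna5, an ephrin. The WT and AromhumH arrays of these small rises did not overlap. Other probes gave 0.27 for S1pr2, 0.00 for Igsf9, 0.13 for B4galnt1 and 0.21 for Il17rd. They gave 0.42 for Slc30a7, 0.66 for Tmem132a and 0.95 for Chst4. Further small rises, for which no role is given, were those of Fbxw17, Pcnx2, Fbxl13, Hectd2os, Uhrf1bp1l, Slc2a6 and D11Wsu47e.

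The other falls were all less than 2-fold except Lrrc30. This leucine-rich repeat gene stood at 6.87, 6.17, 6.80 and 5.89 in AromhumH and at 8.04, 8.09, 7.46 and 7.15 in WT (log2 change −1.25, SE 0.243, adjusted p = 0.0251), and a second probe gave −0.97. Ubxn2a, an adaptor of the segregase p97, fell from 6.64, 6.52, 6.33 and 6.45 to 5.52, 5.48, 5.86 and 5.15 (log2 change −0.98, SE 0.161, adjusted p = 0.0144) on its brightest probe, whereas its other probe stood at 0.28. Cpeb4, which binds polyadenylation elements of mRNA, fell from 8.58, 8.23, 8.50 and 8.58 to 8.0, 7.69, 7.42 and 7.12 (log2 change −0.92, SE 0.178, adjusted p = 0.0251). Smaller falls were those of single genes: the ubiquitin ligase gene Wwp1 changed by −0.81 with a second probe at −0.66, the F-box gene Fbxo3 by −0.77, the elongin gene Eloc by −0.64, the tRNA synthetase gene Eprs by −0.66 and the mitochondrial ribosome gene Mrpl45 by −0.67. The other probes of Fbxo3 gave −0.29 and 0.18 and those of Eprs −0.53 and 0.04. Tst, a mitochondrial sulfurtransferase, fell by 0.81 on the log2 scale and Plaat1, a phospholipase and acyltransferase, by 0.79. The rest, Il4i1, Rilpl1, Slc46a3, Ackr4, Tmpo, Slc7a2, Eepd1, Sh3glb1 and Klra9, lay between −0.79 and −0.54, and Klra9 belongs to a family of near-identical receptor genes that a probe may not tell apart. The other probes of Tmpo gave −0.54 and 0.07, that of Sh3glb1 0.06 and that of Rilpl1 −0.75.

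**Figure D4:**
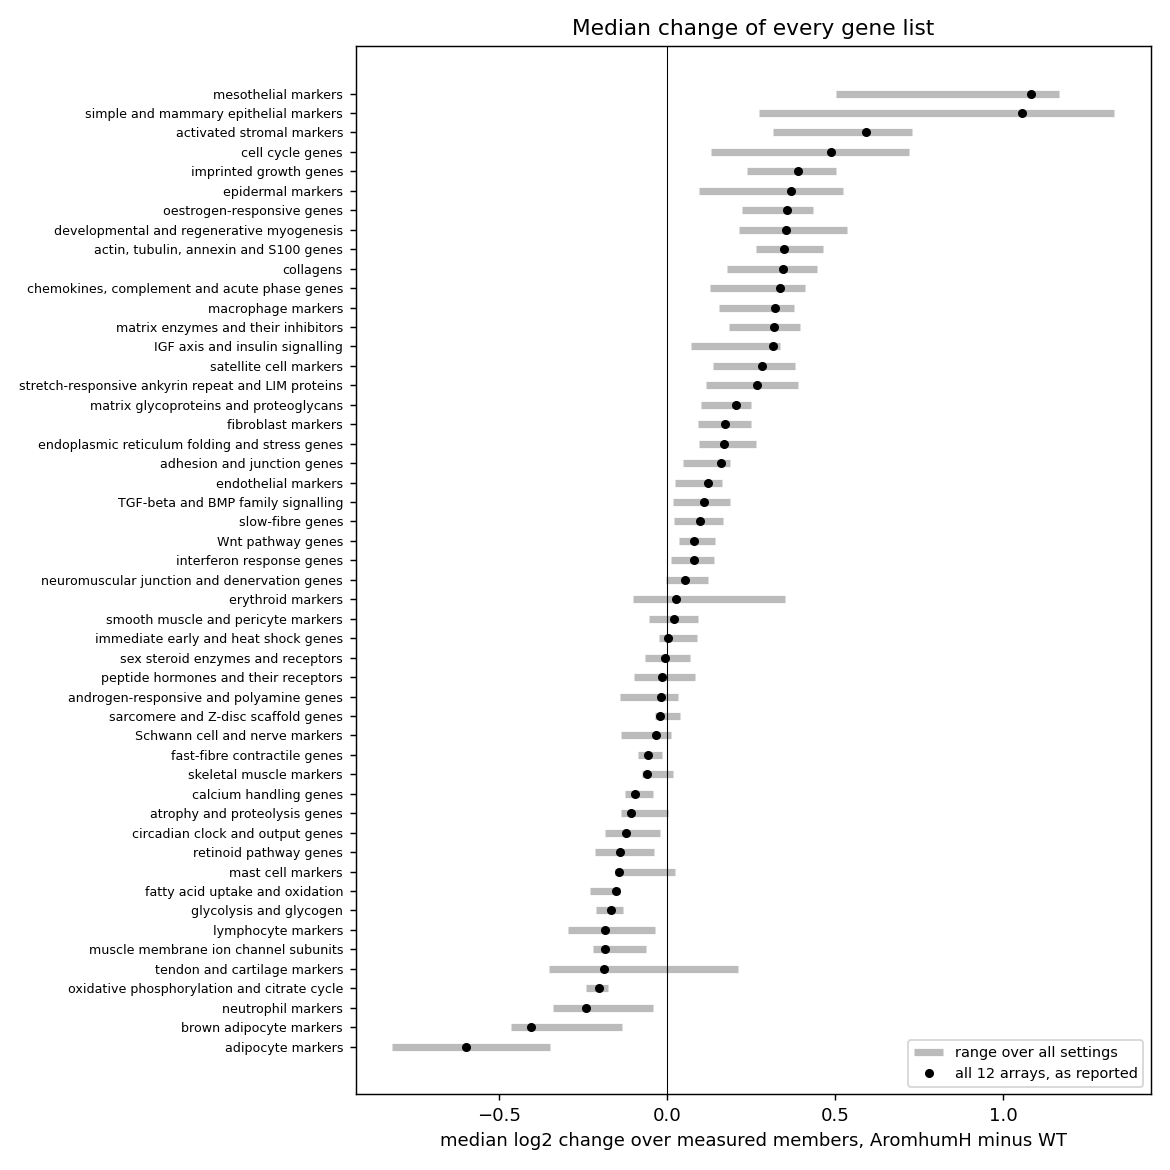
Median log2 change between AromhumH and WT (horizontal axis, points) over the measured genes of each of the 50 gene lists, with the range over all alternative settings and left-out arrays as grey bars. The mesothelial list has the highest median, 1.08, and the adipocyte list the lowest, −0.60, and neither bar reaches 0. The same is true of many other lists, also of nearly flat ones such as the Wnt pathway genes (0.04 to 0.14). All settings reuse the same arrays, so the bars do not show the spread between arrays.

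The remaining lists gave 0 calls. The median was 0.08 for 29 Wnt pathway genes, with the receptor gene Fzd7 at −0.65 (adjusted p = 0.0539), and 0.08 for 22 interferon response genes, with Bst2 at 0.67 (adjusted p = 0.0749). It was −0.11 for 26 atrophy and proteolysis genes, with the metallothionein gene Mt1 at 0.62 (adjusted p = 0.0571), and −0.12 for 13 circadian clock genes, with Per2 at 0.54 (adjusted p = 0.211). Endothelial markers had a median of 0.12 over 16 genes, with Plvap at 0.49 (adjusted p = 0.17). Smooth muscle and pericyte markers had a median of 0.02 over 16, with Lmod1 at −0.49 (adjusted p = 0.219). Tendon and cartilage markers had a median of −0.19 over 10, with the transcription factor gene Scx at 0.86 (adjusted p = 0.0571). Mast cell markers stood at −0.14 over 7, with Tpsab1 at 0.48 (adjusted p = 0.199), and erythroid markers at 0.03 over 7, with Alas2 at 0.35 (adjusted p = 0.747). Neutrophil markers were measured for 3 of 10 genes (median −0.24, S100a8 at −0.39, adjusted p = 0.421) and lymphocyte markers for 1 of 16, Cd79b at −0.18 (adjusted p = 0.679).

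AromhumL, where human aromatase is lower, was set beside these values. Its comparison with WT shares the WT arrays, so only each comparison's own values are given. The genes were chosen because they passed between AromhumH and WT, which favours large values in that comparison, so the medians describe the genes and do not measure a difference between the lines. Tests between the lines given below use the same AromhumH arrays, and their adjusted p-values do not allow for this choice. Over the 93 genes higher in AromhumH the median log2 change was 0.97 in AromhumH and 0.14 in AromhumL, and over the 32 lower genes it was −0.78 and −0.04. AromhumL arrays were uneven for the leading genes. Kiss1 stood at 4.72, 9.49, 8.97 and 6.06 on AromhumL 1 to 4, so that AromhumL 2 and 3 exceeded every WT array and 1 and 4 lay within the WT range, and all 4 lay below every AromhumH array. The difference between the lines was 3.51 on the log2 scale (limma, adjusted p = 0.0302), on the same AromhumH arrays. Myh8 stood at 7.64, 9.31, 11.37 and 7.44, and AromhumL 3 alone lay within the AromhumH range (difference between the lines 2.78, adjusted p = 0.0278). Krt8 stood at 5.57, 7.26, 6.11 and 5.92, below every AromhumH array. Ankrd2 stood at 10.49, 10.20, 10.49 and 10.28, below all AromhumH arrays and, except for WT 3, above the WT arrays, and the lines differed by 0.57 (adjusted p = 0.053). For Kcng4 the values were 7.73, 7.64, 7.16 and 8.23, within the WT range.

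**Figure D5:**
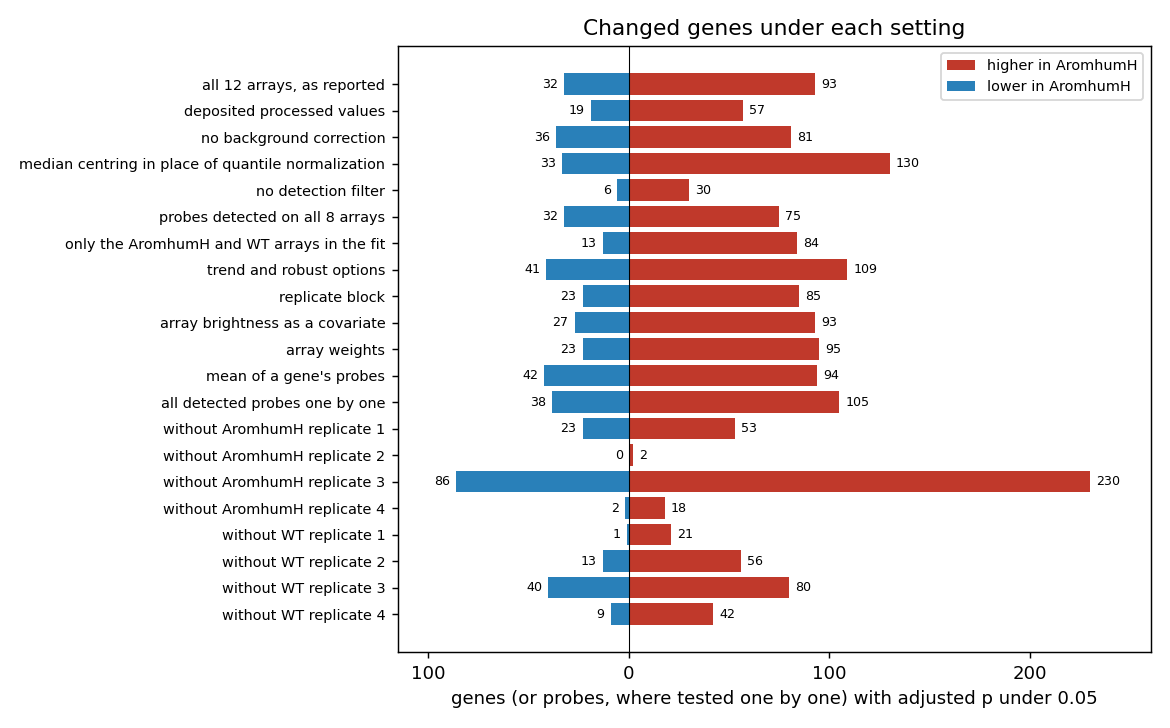
Number of genes (horizontal axis) higher, to the right, and lower, to the left, in AromhumH than in WT at an adjusted p under 0.05, for the fit reported, 12 alternative settings and 8 fits without 1 array. The count falls to 2 without AromhumH 2 and grows to 316 without AromhumH 3.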

How the data were processed

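RNA from lower abdominal muscle was measured on 12 bead arrays of 1 colour, 4 for each of AromhumH, AromhumL and WT. Arrays were assigned to groups by their titles. The authors deposited intensities that the file headers call non-normalized, with a detection p-value for each probe and array per the file headers. They also deposited a processed table whose values lie on a log2 scale and have the same quantiles on every array. The offset and scanner software are not stated in these sources, and slide position and scan date were not found, so no slide or scan batch was fitted.

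Intensities were background-corrected, quantile normalized and log2 transformed with neqc of limma 3.58.1 (R 4.3.3, offset 16), which uses the detection p-values. Probes detected (p under 0.05) on at least 4 arrays were kept, and the brightest named probe stood for its gene. Of 45281 probes, 34885 have 1 gene symbol in the platform annotation, 18 have several and 10378 have none here. Linear models (lmFit, eBayes) were fitted over all 12 arrays, with Benjamini-Hochberg adjustment over 10575 genes and a threshold of 0.05. The procedure was tested on simulated data. For quantities per array the test was an exact permutation test (two-sided), whose smallest p with 4 arrays against 4 is 0.0286. A bound for a probe not detected in a group is its brighter group's mean over the lowest detected signal of each array. The number of arrays limits the precision.

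Every changed gene could be named. All 8 values are given for at least the 12 largest rises and 8 largest falls without overlap. Of each list, up to 3 changed genes with the smallest p are named, or else the gene with the smallest p. Esr1, Greb1, Acta1 and Ckm are always given. Genes and lists were chosen with earlier results of these data known, so counts over lists are descriptions. Alternatives changed the background correction, normalization, detection filter, arrays in the fit, limma options, replicate block, brightness covariate, array weights or probe summary, used the deposited log2 values, or left out 1 array.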

Additional observations from a re-analysis of the deposited data

Results flagged for a closer look

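An array was singled out where its gap to the nearest other array of its group of 4, divided by the group's range, exceeded Dixon's 95% critical value. Of 404 sets of 4 values tested, 16 did so, and chance gives about 1 in 20.

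AromhumH 3 stood apart most often within its group. It was low for Lrrc15 (5.19 against 6.76 to 6.94, ratio 0.896) and for Mmp23 (8.14 against 8.73 to 8.85, ratio 0.82902). Its mean of matrix glycoproteins and proteoglycans was low (ratio 0.912), as was that of matrix enzymes and their inhibitors (ratio 0.862), and its mean of Schwann cell and nerve markers was high (ratio 0.925). AromhumH 4 was high for Ptpn1 (ratio 0.864) and low for Tmpo (ratio 0.879), and AromhumH 1 was low for Pygm (ratio 0.838).

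Among WT arrays, WT 1 was low for Cdca8 (4.55 against 5.27 to 5.38, ratio 0.868) and high for Lmod1 (ratio 0.847), S100a8 (ratio 0.858) and Wwp1 (ratio 0.945). WT 4 was high for Gpm6a (6.99 against 6.43 to 6.49, ratio 0.9004) and Prr15 (6.58 against 5.20 to 5.33, ratio 0.904), 2 genes that rose in AromhumH. WT 2 was low for the mean of sarcomere and Z-disc scaffold genes (ratio 0.846), and WT 3 for that of simple and mammary epithelial markers (ratio 0.922).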

How the results depend on the processing

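The deposited processed values gave 76 changed genes (57 higher, 19 lower), the fit without a detection filter gave 36 (30 higher, 6 lower), and a fit of the 8 arrays alone gave 97 with 13 lower, against 125 (93 and 32). The other 9 settings that kept all arrays stayed within 1.5 times these counts, from 107 to 163 changed genes. Similar counts did not mean the same genes. Of the 125, 59 passed on the deposited values, 32 without a detection filter and 78 with the 8 arrays alone. Without background correction 117 genes passed, and 88 of the 125 were among them. Leaving out 1 array gave 2 to 316 changed genes, 2 to 230 higher and 0 to 86 lower. Of the 125 genes, 0 turned direction under any setting. For the 124 whose groups did not overlap, leaving out 1 array could not have turned it. Of the 125, 16 passed under each of the 12 other settings in which they were tested (11 for Myo5b), and 2 (Dmkn and Myo5b) passed without each array in turn. Among genes named without a call, Alas2 went from 0.35 to −0.0071 without WT 2 and to 0.74 without WT 3. Replicate numbers did not pair the arrays: correlations of same-numbered deviations were −0.249, −0.254, 0.034 and 0.021, and no array matched its own number best. With the replicate number as a block, 108 genes changed (85 higher, 23 lower). Of the 93 higher genes, 17 were detected on fewer than 4 WT arrays, so that their changes rest on a WT level near background.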

Other observations

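Probes without a gene name here were tested one by one with the others. Of them, 16 passed (limma, adjusted p under 0.05), 8 higher and 8 lower in AromhumH. The largest rise was a log2 change of 2.98 (SE 0.634, adjusted p = 0.0441) and the largest fall was −1.71 (SE 0.347, adjusted p = 0.037). Over all probes tested in this way 105 were higher and 38 were lower.

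Genes with several detected probes gave a check within the array. Of the 125 changed genes, 51 had 76 other detected probes, of which 68 moved in the direction of the brightest probe and 15 also passed, in 11 genes.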
